A study of Mus musculus with 5 samples.

Results

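The genes described here encode the nuclear subunits of electron transport complexes I to IV of mitochondria, with cytochrome c. They were chosen by symbol in the platform annotation: all names that begin with Nduf, Uqcr, Cox4, Cox5, Cox6, Cox7 or Cox8, the genes Sdha to Sdhd, Cyc1 and Cycs. The choice gave 73 genes with 110 probes, out of 19057 named genes and 45281 probes on the array. The rule reads names and no measured value, although it was set with earlier results of these data known. Complex I had 55 probes of 36 genes, complex II had 7 probes of 4, complex III had 11 probes of 8 and complex IV had 21 probes of 16. A further 13 probes of 8 genes belong to complex I assembly factors (Ndufaf), which the name rule took in, and 3 probes to Cycs. One complex I entry, Ndufs5-ps, is annotated as a transcribed pseudogene.

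Single-colour Illumina bead arrays were read for total RNA of cells sorted from cerebral cortex as parvalbumin-positive, from C57BL/6J mice carrying the PV-GFP reporter, in which parvalbumin expression marks cells with green fluorescence. Parvalbumin binds calcium and marks inhibitory interneurons that fire fast. The 3 WT samples (replicates 1, 2 and 3, at 61, 64 and 64 days of age) were Clock+/+, and the 2 KO samples (replicates 1 and 3, at 61 and 60 days) were Clock-/-, which lack a core gene of the circadian clock. For the deletion the labels name no Cre driver and no cell type, and all 5 samples were collected at zeitgeber time 16 h. The ages set all samples of a group apart except WT replicates 2 and 3. The labels leave unsaid whether these 2 came from different animals and whether a sample is 1 animal or a pool.

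The respiratory chain moves electrons from NADH and succinate to oxygen. Complex I oxidises NADH and complex II oxidises succinate, both pass electrons through ubiquinone to complex III, and cytochrome c carries them on to complex IV, which reduces oxygen to water, while complexes I, III and IV pump the protons that drive ATP synthesis. Fast-spiking interneurons fire at high rates and are known for a high density of mitochondria and a high demand for oxidative phosphorylation. CLOCK pairs with BMAL1 and binds the E-box sequence in DNA, and nuclear respiratory factor NRF1 is a classical activator of respiratory chain genes.

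Of the 73 genes, 59 had a RefSeq promoter window (build GRCm38.p6), and the 250 bases before the transcript start were searched on both strands for 3 motifs, none of which contains another. These motifs were chosen because CLOCK acts through the E-box and because the other 2 are classical features of respiratory gene promoters. The E-box CACGTG was found in 2 of 59 chain genes, or 3.39%, against 6.86% of all 27025 genes with a window. The NRF1 core CGCATGCG was found in 5 of 59, or 8.47%, against 1.75% of all genes. A longer spelling, with G before and C after the core, was searched first and was found in 3 of 59, or 5.08%, against 0.877%. The ETS-factor motif CCGGAAGT was found in 2 of 59, or 3.39%, against 3.23%. A match is a description of letters and not a binding site. The set of all genes was not matched to the chain genes in gene type or base composition, so the shares are a description only. The sequences below are those with an E-box (Ndufv1, chr19:4012756-4013005, minus strand, and Ndufa7, chr17:33824322-33824571, plus strand) and the 3 with an NRF1 core whose genes had a tested probe (Cycs, chr6:50566570-50566819, minus strand, Cox6a1, chr5:115348959-115349208, minus strand, and Ndufa11, chr17:56717512-56717761, plus strand). They run 5′ to 3′ along the gene's strand and end at the base before the transcript start, and capitals mark the motif.
Ndufv1: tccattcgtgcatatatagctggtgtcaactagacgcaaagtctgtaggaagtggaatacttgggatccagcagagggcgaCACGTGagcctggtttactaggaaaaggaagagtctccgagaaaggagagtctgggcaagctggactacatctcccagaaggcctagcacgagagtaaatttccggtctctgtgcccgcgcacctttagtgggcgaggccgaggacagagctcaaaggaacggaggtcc
Ndufa7: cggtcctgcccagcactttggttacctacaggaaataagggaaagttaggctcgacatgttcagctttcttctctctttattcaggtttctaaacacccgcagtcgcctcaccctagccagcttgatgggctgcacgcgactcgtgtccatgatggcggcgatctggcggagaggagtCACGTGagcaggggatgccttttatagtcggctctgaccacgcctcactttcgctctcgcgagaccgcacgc
Cycs: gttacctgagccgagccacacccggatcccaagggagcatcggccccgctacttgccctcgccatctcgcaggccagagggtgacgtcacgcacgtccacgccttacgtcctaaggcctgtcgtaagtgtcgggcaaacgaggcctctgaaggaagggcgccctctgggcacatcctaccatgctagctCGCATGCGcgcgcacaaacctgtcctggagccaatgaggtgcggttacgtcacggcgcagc
Cox6a1: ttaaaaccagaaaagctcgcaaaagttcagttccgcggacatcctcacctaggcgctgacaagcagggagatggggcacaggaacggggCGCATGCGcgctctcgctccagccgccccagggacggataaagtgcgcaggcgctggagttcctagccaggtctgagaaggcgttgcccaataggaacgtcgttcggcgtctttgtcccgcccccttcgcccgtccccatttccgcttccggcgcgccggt
Ndufa11: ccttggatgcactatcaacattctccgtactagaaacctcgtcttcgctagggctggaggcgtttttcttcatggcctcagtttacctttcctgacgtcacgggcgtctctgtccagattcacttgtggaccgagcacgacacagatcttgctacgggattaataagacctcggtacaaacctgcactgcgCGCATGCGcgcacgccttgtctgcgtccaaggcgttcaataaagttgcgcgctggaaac

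A probe was called above background where its deposited detection p-value, which sets it against background on the same array, was under 0.05. Across the whole array the share that passed was 8.11%, 6.06% and 5.93% for WT replicates 1 to 3, 5.98% for KO replicate 1 and 4.37% for KO replicate 3, where 5% would pass with no signal. KO replicate 3 stood apart: it correlated with the other 4 arrays at r of 0.751 to 0.827 across tested probes, against 0.860 to 0.924 among those 4, and probes are not independent replicates. The 3 probes of Clock were above background on 0 of the 5 arrays, WT included, so they do not check the genotype labels. Of the markers of the sorted cells, 6 of 16 parvalbumin interneuron genes and 5 of 12 GABA neuron genes had a tested probe. Among them Pvalb, Gad1, Gad2 and Slc32a1, which encode parvalbumin, the GABA-making enzymes and the vesicular GABA transporter, were above background on all 3 WT arrays. No marker of excitatory neurons (14 on the array), microglia (13) or endothelial and mural cells (15) passed on 2 arrays, and 1 of 14 astrocyte, 1 of 14 oligodendrocyte lineage, 2 of 15 other interneuron and 1 of 7 blood markers did. Of these, Aldh1l1 (astrocyte), Vip (other interneuron) and Hbb-bt (blood) were above background on all 3 WT arrays. Over the whole array 7.39% of probes passed on 2 or more arrays, so such low counts cannot show how pure the sorting was.

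Probes of the respiratory chain were above background in these cells far more often than probes over the whole array, of which 10378 had no gene symbol. At least 2 arrays placed 43 of the 110 probes above background, or 39.1%, against 7.39% of all probes, and 12 of the 110 passed on all 5 arrays, against 2.29% of all probes. These 43 probes, of 39 genes, were the ones tested. A further 14 probes passed on 1 array only, and 53 probes on none, so that 27 genes were below background with all their probes on all 5 arrays. For those genes the array gave no level, which does not show that they were not expressed.

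The share of chain probes above background differed between arrays. The share over the whole array, from 4.37% on KO replicate 3 to 8.11% on WT replicate 1, lay near the 5% that would pass with no signal. The spreads of these shares can therefore not be set against each other. Chain probes above background came to 53, 42 and 30 of 110 for WT replicates 1 to 3, or 48.2%, 38.2% and 27.3%. On KO replicate 1 the count was 34 of 110, or 30.9%, between the WT arrays. On KO replicate 3 it was 14 of 110, or 12.7%, below them all. Complex I followed the same order, with 31, 23 and 15 of 55 probes on the WT arrays, 19 on KO replicate 1 and 5 on KO replicate 3. In complex IV the counts were 9, 9 and 7 of 21 on WT, 8 on KO replicate 1 and 4 on KO replicate 3. For complex II they were 4, 3 and 2 of 7 on WT, 2 and 1 on KO, and for complex III 6, 5 and 3 of 11 on WT, 4 and 2 on KO. Thus KO replicate 1 lay within the WT range in each of the 4 complexes, and KO replicate 3 lay below it in each.

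**Figure D1:**
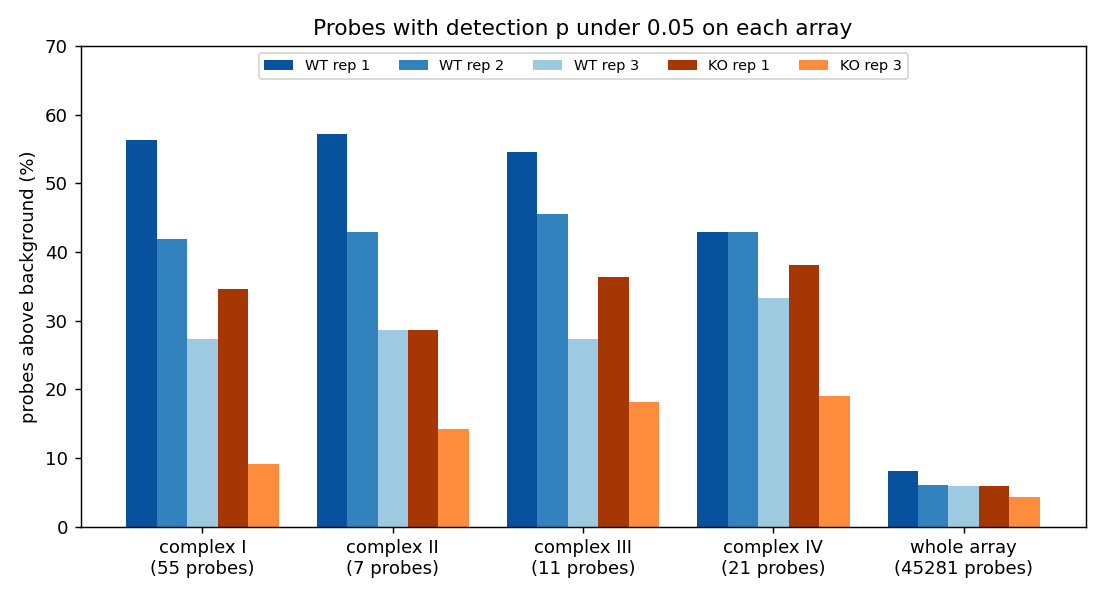
Percent of probes above background (y axis) for complexes I to IV and the whole array, with 1 bar per array. KO replicate 3 has the lowest bar in every group, from 9.09% in complex I to 19.0% in complex IV, and 4.37% over the whole array.

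The comparison of KO with WT asks how loss of Clock relates to expression in these cells. None of the 43 tested chain probes differed between genotypes past the threshold with limma (smallest adjusted p 0.801, Benjamini-Hochberg over all 3347 tested probes, of which 0% passed). At an unadjusted p under 0.05 there were 6 of 43, all lower in KO, where 5.92% of all tested probes were under that p, 2.90% lower and 3.02% higher. They were Ndufa10, Ndufa12, Ndufa13 and Ndufb4 of complex I and Cox6a1 and Cox6b1 of complex IV. A split of 3 arrays against 2 can be made in 10 ways, so an exact permutation test of 1 probe could not give a two-sided p below 0.1.

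The differences of the tested probes lay mostly below 0. KO was lower than WT for 34 of the 43, against 49.4% of all tested probes, and the median difference (KO minus WT, log2 scale) was -0.17, against 0.0048 over all tested probes. Probes enter this set through being above background on 2 arrays, WT arrays included, so members that were high in WT and dim in KO were favoured, and these counts are a description only. Over all 110 probes, with no filter, the median was -0.077, against 0.00082 over the whole array. Of the 110, 82 were lower, against 49.4% of all probes on the array, but most of these probes were at background. Among the 12 probes above background on all 5 arrays, 7 were lower in KO, against 46.8% of such probes over the whole array, and the median was -0.047.

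KO replicate 3 lay further from WT than KO replicate 1. Relative to the WT mean, the median over the 43 probes was -0.089 on KO replicate 1 and -0.31 on KO replicate 3, against 0.0069 and -0.026 over all tested probes. KO replicate 3 was below KO replicate 1 for 39 of the 43 probes, against 57.0% of all tested probes, and it was the lowest of the 5 arrays for 27 of them, against 29.0%. At the other end, WT replicate 1 was the highest array for 21 of 43 probes, against 20.2%. Both KO arrays lay below all 3 WT arrays for 9 of 43 probes, against 10.6% of all tested probes, and above them for 2 of 43, against 11.2%. The whole-array detection of KO replicate 3 was also the lowest, and its part in these differences was not tested. In sorted cells fewer cells of a type and less RNA per cell cannot be told apart.

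**Figure D2:**
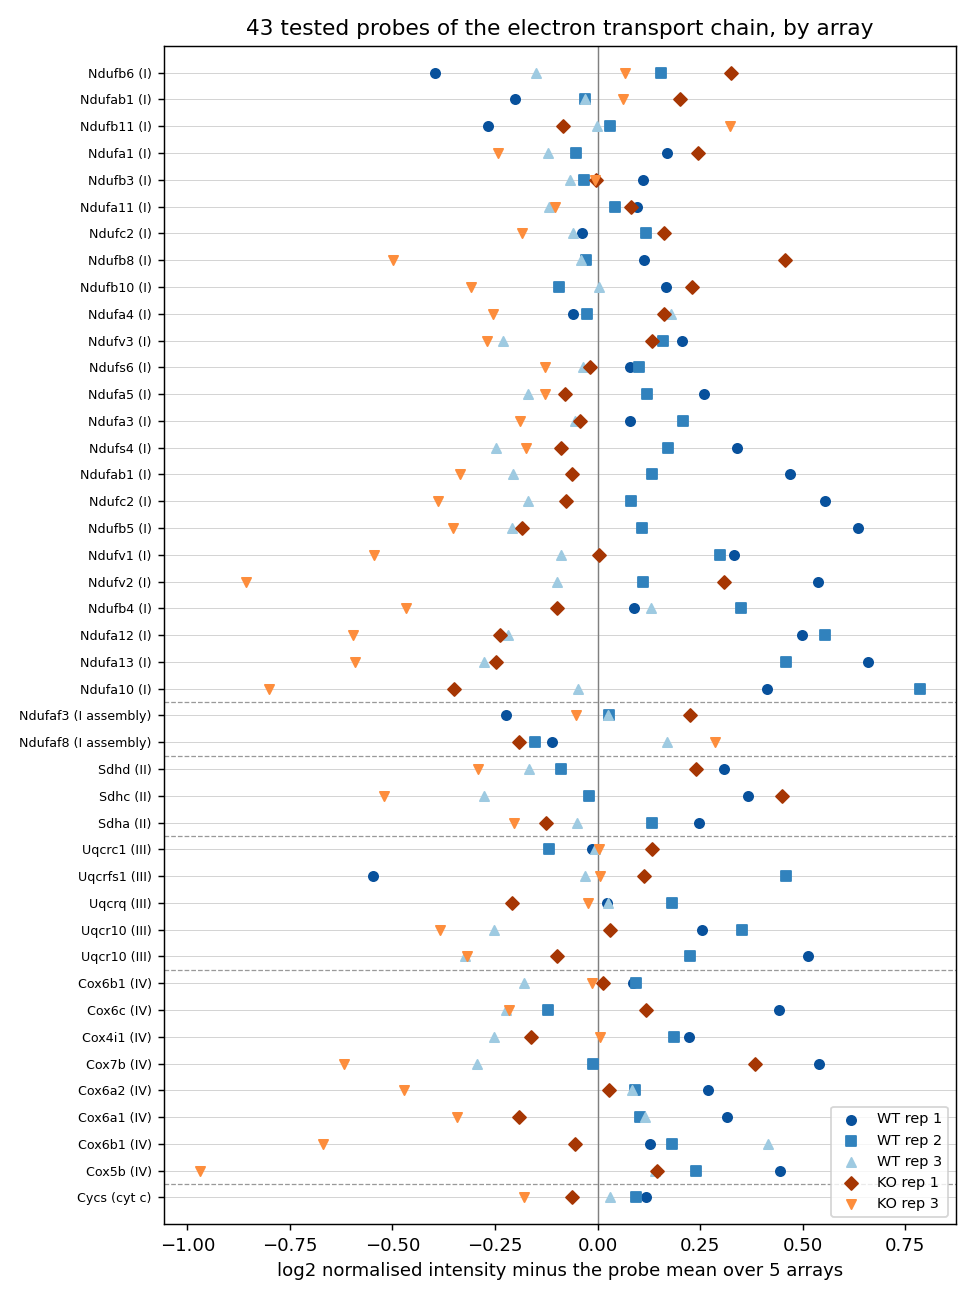
Each row is 1 of the 43 tested probes, ordered by complex, and each point 1 array, placed by its log2 normalised intensity minus the probe's mean over the 5 arrays (x axis). KO replicate 3 is the leftmost point in 27 of the 43 rows, and KO replicate 1 is spread among the WT arrays in most rows.

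In complex I, 24 of 55 probes were tested, with a median difference of -0.15, a range of -0.96 to 0.33 and 20 of 24 lower in KO. On KO replicate 1 alone the median was -0.037 and 14 of 24 were below the WT mean, and over the 5 probes above background on all arrays it was 0.20, with 2 of 5 lower. The lowest value belonged to Ndufa10, an accessory subunit, whose 1 probe read 8.33, 8.70 and 7.87 in WT (replicates 1 to 3) and, in KO, 7.57 (replicate 1) and 7.12 (replicate 3). Values of other probes are given in the same order, as log2 normalised intensities. Both KO arrays lay below all WT arrays, and the difference was -0.96 ± 0.27 (SE; limma adjusted p 0.801, unadjusted 0.0094). Only KO replicate 1 of the KO arrays had the probe above background, and without KO replicate 3 the difference was -0.73. Ndufa12, a structural relative of an assembly factor, read 8.09, 8.14 and 7.37 in WT and 7.35 and 6.99 in KO, a difference of -0.69 ± 0.27 (SE). The groups did not overlap, but KO replicate 1 was almost level with WT replicate 3. Ndufa13, also known as GRIM-19, read 8.30, 8.10 and 7.36 in WT and 7.39 and 7.05 in KO (-0.70 ± 0.29, SE), and its groups overlapped. For both of these probes WT replicate 3 stood nearer the KO arrays than the other WT arrays, and KO replicate 3 was below background. Ndufb4, named after its values were seen, read 7.57, 7.83 and 7.61 in WT and 7.38 and 7.01 in KO, with no overlap.

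The NADH-binding end of complex I was measured through Ndufv1, Ndufv2 and Ndufv3, all named after their values were seen. Ndufv1, which carries the flavin that accepts electrons from NADH and whose promoter window held an E-box, read 7.97, 7.93 and 7.55 in WT and 7.64 and 7.09 in KO. Its difference was -0.45 ± 0.23 (SE, adjusted p 0.801), with KO replicate 1 inside the WT range. Ndufv2, an iron-sulfur subunit beside it, read 8.60, 8.17 and 7.96 in WT and 8.37 on KO replicate 1, again inside the WT range, with KO replicate 3 at 7.20. Ndufv3, a small accessory subunit there, had 1 of 3 probes tested. It read 7.37, 7.33 and 6.94 in WT and 7.30 and 6.90 in KO, a difference of -0.11 with overlapping groups. The other 2 Ndufv3 probes were below background on every array, at -0.050 and 0.13. The other E-box gene, Ndufa7, was below background on every array. The same held for Ndufs1, Ndufs3, Ndufs7 and Ndufs8, core subunits that carry electrons from the flavin towards ubiquinone or help to hold that path. Ndufa11, whose promoter window held an NRF1 core and which was named for it, read 7.19, 7.14 and 6.98 in WT and 7.18 and 6.99 in KO, with the KO arrays inside the WT range.

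Other complex I probes were level with WT or higher in KO. Ndufab1, the mitochondrial acyl carrier protein, was above background on all 5 arrays through 1 probe, at 8.48, 8.65 and 8.65 in WT and 8.88 and 8.74 in KO. Both KO arrays were above all WT arrays there, with a difference of 0.22 ± 0.16 (SE, adjusted p 0.801), which turned to -0.67 under median scaling. A second Ndufab1 probe went the other way: it was above background on 2 WT arrays and on 0 KO arrays. With KO raised to the lowest signal above background it was 1.10-fold lower in KO. This is no strict bound, as WT replicate 3 was below background too. The 2 tested probes of this gene thus disagreed in direction. The membrane-arm subunit Ndufb6 read 7.45, 7.997 and 7.69 in WT and 8.17 and 7.91 in KO, with KO replicate 3 inside the WT range. This was the highest difference of the complex at 0.33 ± 0.21 (SE), or -0.096 under median scaling. Its other probe, above background on WT replicate 1 alone and not tested, was at -0.28. Ndufb11, another membrane-arm subunit, read 7.09, 7.39 and 7.36 in WT, 7.27 on KO replicate 1 and 7.68 on KO replicate 3, so that here KO replicate 3 was the highest array.

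For some probes the WT arrays lay close together and the KO arrays far apart. Ndufb8, a membrane-arm subunit, read 10.16, 10.02 and 10.01 in WT, a mean of 10.06 ± 0.086 (SD, n = 3), but 10.50 on KO replicate 1 and 9.55 on KO replicate 3. The KO arrays thus lay on opposite sides of WT, and the difference of -0.036 ± 0.28 (SE) averages over this gap and was 1.09 under cyclic loess. Ndufa4, named for complex I and since assigned to complex IV from work on human and bovine enzyme, read 8.54, 8.58 and 8.78 in WT and 8.76 and 8.35 in KO (-0.079 ± 0.19, SE). Ndufc2, of the membrane arm, had 2 tested probes, with differences of -0.39 and -0.018, each above background on KO replicate 1 and not on KO replicate 3. Among assembly factors, which build complex I and are not part of it, 2 of 13 probes were tested. Ndufaf3 was above background on all 5 arrays, with a WT mean of 7.34 ± 0.14 (SD, n = 3) against 7.49 ± 0.20 (SD, n = 2) for KO. Ndufaf8 was the 1 tested chain probe above background on KO replicate 3 and not on KO replicate 1, at 7.10, 7.06 and 7.38 in WT and 7.02 and 7.49 in KO. Their median difference was 0.11, above 0 (-0.013 over all 13 probes with no filter), while that of the complex I subunits was below 0, and this contrast of 2 probes with 24 was not tested.

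Complex II, the succinate dehydrogenase shared with the tricarboxylic acid cycle, had 3 of 7 probes tested, all with values below 0 and a median of -0.058. Sdhc, a membrane anchor, read 8.77, 8.38 and 8.13 in WT and 8.85 and 7.88 in KO. KO replicate 1 was the highest of the 5 arrays and KO replicate 3 the lowest, so the difference of -0.058 ± 0.32 (SE) was small beside the gap between the KO arrays. The other anchor, Sdhd, showed the same arrangement with KO replicate 1 inside the WT range: 7.81, 7.42 and 7.34 in WT and 7.74 and 7.21 in KO. Sdha, the flavoprotein that oxidises succinate, was above background on 2 WT arrays and on neither KO array. With KO raised to the lowest signal above background it was 1.02-fold lower in KO, no strict bound, as WT replicate 3 was below background. Its values were 7.38, 7.26 and 7.08 in WT and 7.002 and 6.92 in KO, with no overlap (adjusted p 0.801). Without KO replicate 3 the median of complex II was 0.22, and without WT replicate 1 it was 0.10, so its sign rests on single arrays. The 3 probes of the iron-sulfur subunit gene Sdhb were not above background on any array, and a second Sdhc probe passed on 1 array.

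Complex III, the cytochrome bc1 complex, had 5 of 11 probes tested, 3 lower and 2 higher in KO, with a median of -0.19, or -0.089 on KO replicate 1 alone. Uqcrc1, a core protein, was above background on all 5 arrays at 7.37, 7.27 and 7.38 in WT and 7.52 and 7.39 in KO. KO replicate 3 lay only just above WT replicate 3, and the difference was 0.11 ± 0.15 (SE), or -0.029 under median scaling. Uqcrfs1, the Rieske iron-sulfur protein, varied most within WT among the complex III probes, at 6.76, 7.77 and 7.28, and both KO arrays, at 7.43 and 7.32, were inside that range. Its other probe was below background on every array. The small subunit gene Uqcr10 had 2 tested probes, which ran alike, with differences of -0.35 ± 0.26 (SE) and -0.29 ± 0.24 (SE). On the first, WT read 7.87, 7.58 and 7.03 and KO 7.26 and 7.04, so WT replicate 3 sat with the KO arrays. On 1 of its 2 probes, Uqcrq, a small subunit near the ubiquinone site, was above background on all 3 WT arrays and on neither KO array. This probe thus passed the filter through WT alone. Its KO arrays read 7.05 and 7.23 against 7.28 to 7.44 in WT, a difference of -0.19 ± 0.16 (SE, limma adjusted p 0.805). With KO raised to the lowest signal above background it was 1.08-fold lower in KO, a value that takes no account of this error. The other Uqcrq probe was below background on every array, at a difference of 0.058. Cyc1, which encodes cytochrome c1, the subunit that hands electrons to cytochrome c, was below background on every array.

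Cytochrome c itself, Cycs, whose promoter window held an NRF1 core, had 1 of 3 probes tested. It read 7.28, 7.26 and 7.19 in WT and 7.10 and 6.99 in KO, above background on every WT array and on neither KO array. Both KO arrays lay below WT, with a difference of -0.20 ± 0.15 (SE, limma adjusted p 0.801), and the probe passed the filter through WT alone. With KO raised to the lowest signal above background it was 1.02-fold lower in KO, a value that takes no account of this error. Its other 2 probes were not above background on any array, so a single probe carries this reading.

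In complex IV, cytochrome c oxidase, 8 of 21 probes were tested, 7 of them lower in KO, with a median of -0.28, or -0.13 on KO replicate 1 alone. The order of the complexes by median changed with the setting, and their medians were not tested against each other. Cox6b1, a subunit facing the intermembrane space, read 8.81, 8.86 and 9.10 in WT and 8.63 and 8.01 in KO on the probe that was above background on all 5 arrays. There the groups did not overlap, and the difference was -0.60 ± 0.22 (SE; limma adjusted p 0.801, unadjusted 0.029). The second Cox6b1 probe did not show this, with a WT mean of 7.20 ± 0.16 (SD, n = 3) against 7.20 ± 0.019 (SD, n = 2) for KO. Cox5b, a matrix-facing subunit, read 9.06, 8.85 and 8.75 in WT, 8.76 on KO replicate 1 and 7.64 on KO replicate 3. KO replicate 1 was thus within the WT range, and the difference of -0.69 ± 0.32 (SE) became -0.13 without KO replicate 3. Of 3 Cox5b probes only this 1 was tested, and the others, near background, were at 0.074 and -0.044. Cox6c, a small membrane subunit, read 10.25, 9.69 and 9.59 in WT and 9.93 and 9.59 in KO, with overlapping groups. Cox7b, named after its values were seen, read 8.26, 7.71 and 7.43 in WT and 8.11 and 7.11 in KO, with KO replicate 1 inside the WT range and KO replicate 3 below it.

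Several complex IV subunits exist in alternative forms encoded by different genes. Cox6a1, the widely expressed form, and Cox6a2, a form of heart and skeletal muscle that in mouse brain is known from parvalbumin interneurons, were both above background on all 3 WT arrays and on KO replicate 1. Cox6a1, whose promoter window held an NRF1 core, read 7.68, 7.47 and 7.48 in WT and 7.17 and 7.02 in KO, with no overlap and a difference of -0.44 ± 0.16 (SE, adjusted p 0.801). Its other probe was below background on every array, at -0.23. Cox6a2 read 7.56, 7.38 and 7.37 in WT and 7.31 and 6.81 in KO, also with no overlap (-0.37 ± 0.20, SE), although KO replicate 1 was close to WT replicate 3. Without KO replicate 3 the differences were -0.37 for Cox6a1 and -0.12 for Cox6a2. Cox4i1, the common form of subunit 4, was above background on all 5 arrays, at 7.86, 7.83 and 7.39 in WT and 7.48 and 7.64 in KO, and was one of the probes for which KO replicate 3 was not the lower KO array. Cox4i2, a form of lung that responds to hypoxia, was not above background on any array. The same held for Cox6b2, a form of testis, for Cox7a1 and Cox8b, forms of muscle, and for Cox8c, a form of testis. Cox7a2, a widely expressed form, was also not above background on any array, so absence of a signal here does not separate tissue forms from common ones. Cox7a2l, which is widely expressed and was taken in by its name, was not above background on any array either.

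**Figure D3:**
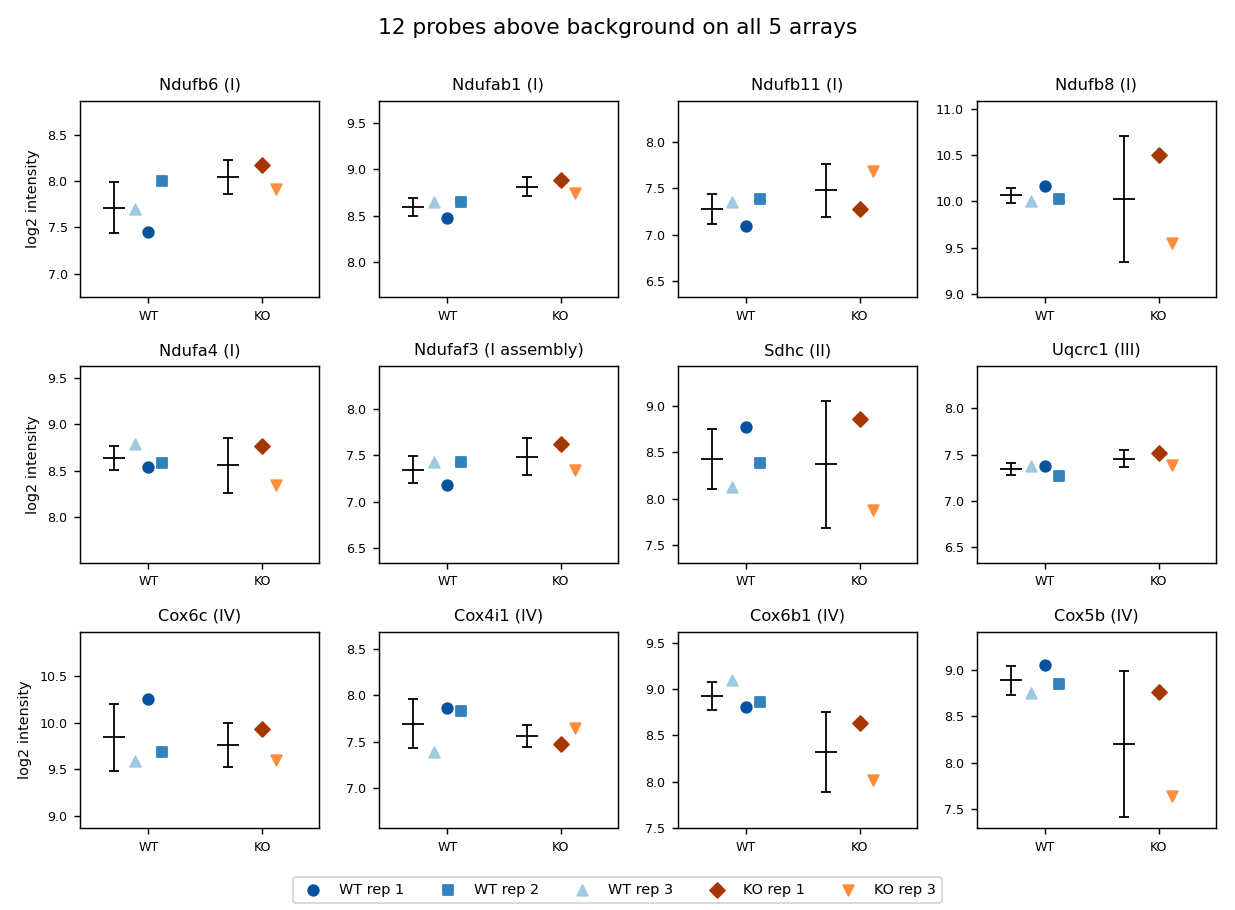
Log2 normalised intensity (y axis) of the 12 probes above background on all 5 arrays, with 1 point per array, and the mean with its SD for each group (WT, n = 3; KO, n = 2) as a black bar. The KO arrays lie apart from each other for Ndufb8, Sdhc and Cox5b. Both lie below WT for Cox6b1 and above WT for Ndufab1 and, narrowly, Uqcrc1.

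Genes with several probes gave an uneven picture. Of the 28 chain genes with more than 1 probe, 3 had all their probes tested, 17 had some tested and 8 had none. Ndufb8 had 1 probe above background on all 5 arrays and 1 on no array, and Ndufab1 had 4 probes that were above background on 5, 2, 1 and 0 arrays. For the 17, values given without mention of another probe are those of a tested probe only. Levels are therefore compared only within a probe.

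Genes that serve the chain without being its subunits were read from lists. Of assembly factors of complex IV 4 of 20 on the array had a tested probe, of complexes II and III 1 of 10, and of complex I outside the Nduf names 2 of 8. Among them Ttc19, of complex III assembly, had a WT mean of 8.64 ± 0.28 (SD, n = 3) against 8.61 ± 0.32 (SD, n = 2) for KO, and Coa3, of complex IV assembly, differed by -0.45 with overlapping groups. Cmc1, also of complex IV assembly and of smallest p in that list, read 7.57, 7.32 and 7.35 in WT and 7.28 and 6.84 in KO, a difference of -0.35 with no overlap. Cmc2 and Pet100, also of complex IV assembly, and Foxred1, of complex I assembly, differed by 0.040, 0.077 and 0.072. Of 14 transcriptional regulators of the chain only Tfb2m, a mitochondrial transcription factor, had a tested probe (-0.027), and Ppargc1a, Nrf1 and Tfam had none. The tricarboxylic acid cycle, which feeds NADH and succinate to the chain, had 7 of 16 genes tested through 8 probes, all 8 below 0, with a median of -0.22. Of these 8 probes 4 were below background on both KO arrays and passed the filter through WT alone, and 49.4% of all tested probes were below 0. Pdha1, of pyruvate dehydrogenase, had a WT mean of 7.65 ± 0.16 (SD, n = 3) against 7.28 ± 0.14 (SD, n = 2) for KO. Dlst, of the 2-oxoglutarate dehydrogenase complex, differed by -0.21 on the probe above background on all 5 arrays. Suclg1 and Idh3g, of succinyl-CoA ligase and isocitrate dehydrogenase, were below background on both KO arrays. Suclg1 read 8.16, 7.57 and 7.04 in WT and 7.16 and 6.93 in KO, with overlapping groups and WT replicate 1 far above the rest. None of these probes passed limma's threshold. The 11 subunits encoded by mitochondrial DNA had no probe under the names used here and were not analysed.

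The level of markers of the sorted cells is given beside the chain probes, and none of these markers passed limma's threshold. Of 9 tested probes (6 genes) of parvalbumin interneuron markers 8 were below 0, with a median of -0.37. Of 6 tested probes (5 genes) of GABA neuron markers all 6 were below 0, with a median of -0.53. Over all tested probes 49.4% were below 0, with a median of 0.0048. Satb1 and 1 of the Vamp1 probes passed the filter through WT arrays alone, so these counts are a description only. The mean log2 intensity over all probes of the parvalbumin list was 7.03 to 7.09 on the WT arrays, 6.999 on KO replicate 1 and 6.85 on KO replicate 3, and over the GABA list 7.09 to 7.19, 7.12 and 6.95. KO replicate 1 was thus inside the WT range on the GABA list and below it on the parvalbumin list, and KO replicate 3 was below WT on both. Pvalb differed by -1.24 (limma adjusted p 0.801), with both KO arrays below all WT arrays and 1 of 2 KO arrays above background. Cox6a2 belongs to the parvalbumin list as well as to complex IV. The list of other interneurons read 6.72 to 6.80 in WT, 6.79 on KO replicate 1 and 6.67 on KO replicate 3, again below WT. The lists of other cell types had 0 or 1 gene tested in each, so their means are those of probes at background. Excitatory neurons read 6.59 to 6.60 in WT and 6.56 and 6.60 in KO, astrocytes 6.58 to 6.59 and 6.59 and 6.60, and microglia 6.54 to 6.57 and 6.57 and 6.58. The part of cell makeup in the chain differences was not tested.

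**Figure D4:**
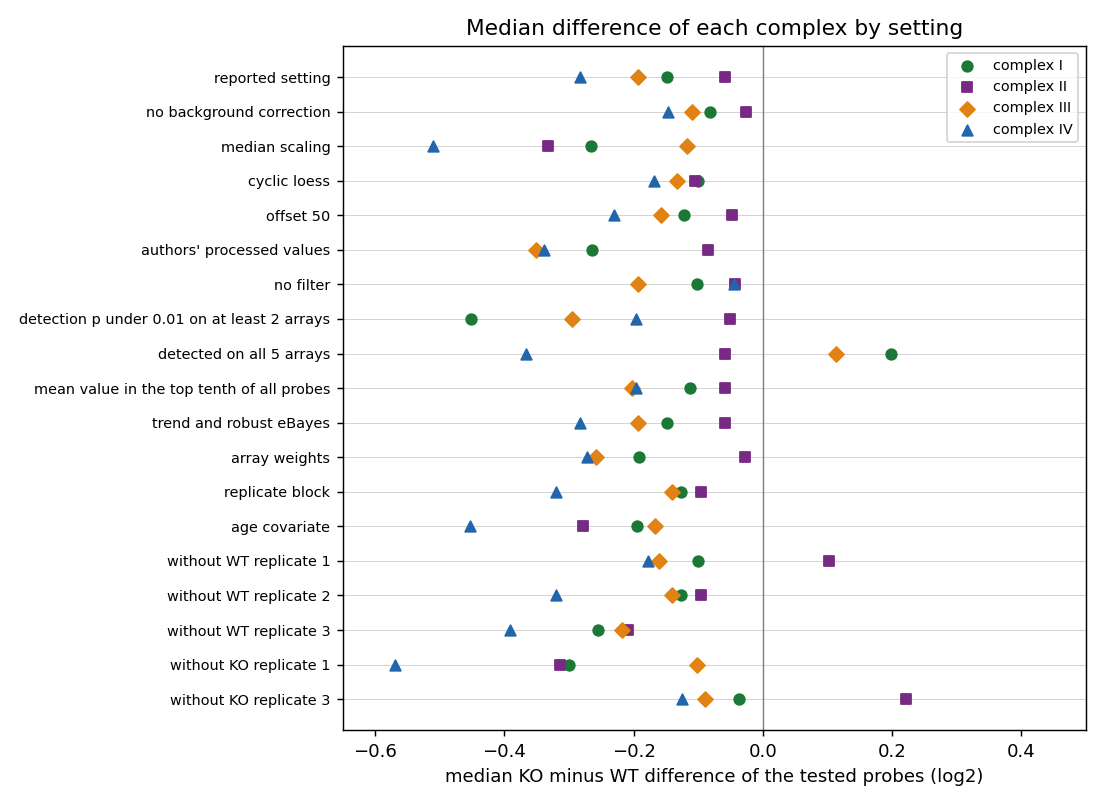
Median KO minus WT difference (log2, x axis) of the tested probes of each complex under each processing setting and with each array left out, with the normalised values kept. For median scaling, values are relative to the median of all tested probes. Complex IV stays below 0 in every row shown, complex I and complex III are above 0 where only probes on all 5 arrays are used (0.20 and 0.11), and complex II is above 0 without WT replicate 1 (0.10) or KO replicate 3 (0.22).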

How the data were processed

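Signals came from single-colour Illumina arrays of 5 samples, grouped by their titles. Per the labels, RNA was amplified and biotin-labelled with NuGEN kits. The authors deposited raw intensities on a linear scale and a detection p-value per probe and array, per the file headers, without normalization, and a second table of processed intensities for which no steps are stated. GenomeStudio is named, without a version, per the submitters' processing notes.

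Gene symbols came from the platform annotation: 34885 probes had 1 symbol, 18 several and 10378 none, and names of 34807 were set through Entrez IDs to those of RefSeq. From the deposited intensities, log2 values were computed in R 4.3.3 by neqc of limma 3.58.1, which takes background from the detection p-values (normexp), adds an offset of 16 and applies quantile normalization. The 3347 of 45281 probes that passed detection (p under 0.05) on 2 or more arrays entered lmFit and eBayes. P-values are two-sided and were adjusted by Benjamini-Hochberg over these probes, with a threshold of 0.05. For some probes below background on every KO array a fold value is printed, for which KO values were raised to the array's lowest signal above background. It was taken only where the WT mean stayed above the raised KO mean. WT values were kept as read, also where a WT array was below background, and the error of the difference was not taken into account. The fold value is therefore no strict bound, and such probes passed the filter through WT alone. The number of arrays limits precision. The fit was also run on simulated data. Promoter sequences are RefSeq's (GRCm38.p6).

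Named were probes above background on all 5 arrays, the 3 highest and 3 lowest differences per complex, complex II, Cyc1, Cycs, alternative forms, genes with several tested probes and, in related lists, genes on all arrays or of smallest p; other names are marked. The shorter NRF1 motif was chosen after a longer one had been searched. Members, lists, tests and alternatives were chosen with earlier results of these data known.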

Additional observations from a re-analysis of the deposited data

How the results depend on the processing

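None of the chain probes passed the threshold under any alternative or with any array left out (0 in each). Over all probes the count was 0 too, except without KO replicate 1, where 48 of 3347 passed, or 27 of 3010 normalised anew. Over all members the median difference ranged from -0.34 to -0.037 when 1 array was left out, with values kept or the rest normalised anew. By complex these ranges were -0.35 to -0.037 for I, -0.35 to 0.24 for II, -0.25 to -0.062 for III, -0.63 to -0.11 for IV (-0.57 without KO replicate 1, values kept) and 0.011 to 0.21 for assembly factors. With KO replicate 1 left out, KO is 1 array assumed to vary like WT. Under median scaling the median over tested probes shifted by -0.40, so those values are given relative to it. Beyond the spread of array medians, complex IV moved to -0.51 under median scaling and -0.044 with no filter, complex III to -0.35 on the authors' processed values, assembly factors to -0.013 with no filter and 0.23 with age as a covariate, and complex I to -0.45 at detection p under 0.01. With detection on all 5 arrays complex I was at 0.20 and complex III at 0.11, on fewer probes. At detection p under 0.01 the chain probes above background were 37, 19 and 10 on WT and 16 and 5 on KO.

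Only replicates 1 and 3 are shared between WT and KO, and nothing says that a number marks a shared animal or day. With the replicate block 0 probes passed, the median was -0.14 over all members and -0.13, -0.096, -0.14 and -0.32 for complexes I to IV, with 0.10 for assembly factors, the same as without WT replicate 2, which the block leaves without a partner. Deviations correlated at 0.20 (replicates 1) and 0.13 (replicates 3), which with 2 KO arrays are mirror images and cannot show pairing.

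Differences of some single probes changed sign, many of them near 0 but others, such as those of Ndufab1, Ndufb8 and Cox6c, by more. Under median scaling the probes that changed sign were Ndufab1 (-0.67, the probe on all arrays), Ndufb6 (-0.096), Ndufc2 (0.16), Uqcrc1 (-0.029) and the second Cox6b1 probe (-0.00065). Under cyclic loess they were Ndufb8 (1.09), Cox6c (0.55), Ndufa4 (0.0034), Ndufc2 (0.024), Ndufaf8 (-0.014), Sdhc (0.023) and Cox6b1 (-0.032). With array weights they were Sdhd (0.027), Uqcrfs1 (-0.22), Cox6b1 (-0.056) and Cox6c (0.018), with age Ndufa4 (0.11), Ndufb8 (0.034), Ndufc2 (0.10) and Cox6b1 (-0.095), with the replicate block Ndufc2 (0.038) and with offset 50 Cox6b1 (-0.00063). The cause was not tested. With 1 array left out and values kept, the ranges of probes that changed sign were -0.090 to 0.047 for Cox6b1, -0.25 to 0.12 for Cox6c, -0.29 to 0.13 for Ndufa4, -0.16 to 0.32 for Ndufaf8, -0.0043 to 0.40 for Ndufb11, -0.51 to 0.44 for Ndufb8, -0.19 to 0.16 for Ndufc2, -0.54 to 0.43 for Sdhc, -0.31 to 0.22 for Sdhd and -0.15 to 0.35 for Uqcrfs1. Normalised anew, the values that changed sign were, without WT replicate 1, Ndufb8 (0.072), Sdhc (0.11), Sdhd (0.019), Uqcrfs1 (-0.042) and Cox6c (0.16). Without WT replicate 3 the second Cox6b1 probe was at -0.10 and without KO replicate 1 at -0.016. Without KO replicate 3 they were Ndufa4 (0.13), Ndufaf8 (-0.17), Ndufb11 (-0.0045), Ndufb8 (0.45), Ndufc2 (0.17), Sdhc (0.44), Sdhd (0.24) and Cox6c (0.087). Most chain probes lay near background, which limits all of these values.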
